A study of Bos grunniens and Bos grunniens x Bos taurus with 2 samples.

Results

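*GFRA1*, *ZBTB16*, *FGFR3*, *ID4* and *DLK1* are 5 genes used as markers of stem spermatogonia, and their counts were followed through all deposited testis cells of 1 yak and 1 cattle-yak. They were chosen by symbol out of 26961 annotated genes, and each symbol belonged to 1 feature. Per the labels, testicular tissue of both animals was taken after sexual maturity, frozen and thawed, digested with enzymes and captured as single cells in droplets with the 10x Genomics system. The published methods describe the yak, and what is given here of the cattle-yak comes from the labels alone. The yak (Bos grunniens) and the cattle-yak, the cross of yak and cattle (Bos grunniens x Bos taurus), gave 1 library each, so a comparison of both has no replicate check and no test. No treatment or genetic change separated them besides the cross itself. Unique molecular identifiers (UMIs) summed to 60816600 over 11991 yak cells, with a median of 2533 per cell. For the cattle-yak, 8930 cells summed to 43774841, with a median of 3155. The libraries shared 24 cell barcodes, which were treated as separate cells.

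Male germ cells start as spermatogonia at the wall of the seminiferous tubule, of which a small undifferentiated part renews itself, while the rest go on to spermatocytes (SPCs), which undergo meiosis, and spermatids (SPTs). *GFRA1* codes for the co-receptor through which GDNF from Sertoli and peritubular cells signals to the RET kinase. *ZBTB16*, also called PLZF, codes for a zinc finger repressor that undifferentiated spermatogonia need for self-renewal and that some innate-like lymphocytes also use. *FGFR3* is a receptor for fibroblast growth factors and a marker of the least differentiated human spermatogonia. *ID4* codes for a helix-loop-helix protein that binds E proteins and keeps them from DNA. *DLK1* is an imprinted gene for a membrane protein with EGF repeats, related to the Notch ligands and widely known from preadipocytes and other progenitor cells.

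The study had assigned 1127 yak cells to germ types, as 84 spermatogonial stem cells (SSCs), 486 spermatogonia (SPGs), 72 early SPCs, 261 late SPCs and 224 SPTs. These are called typed cells here. All of them lay within the limits the study set on genes, UMIs and mitochondrial share per cell. The typed cells were joined by untyped cells of clusters that carried at least 3 enriched markers of SPGs, SPCs or SPTs, in a clustering that did not use the 5 genes. This gave 1787 germ cells and 10204 somatic cells in the yak, and 571 germ cells and 8359 somatic cells in the cattle-yak, of which none had a type from the study. Of the yak germ cells, 423 lay outside the limits of the study, 412 of them above those on UMIs or genes, and of the cattle-yak germ cells 435 lay outside, with 254 above the limits on UMIs or genes and 216 at or above a mitochondrial share of 30%. The labels name the material as germ cells, but germ cells were 14.9% of the yak cells and 6.39% of the cattle-yak cells.

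Levels are given as CPM, the summed counts of a group of cells per 1e6 UMIs of that group, with exact Poisson intervals at 95% in brackets. These intervals cover counting error only. Fewer transcripts per cell and fewer cells of a kind within a group cannot be told apart in such sums.

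All 5 genes were found in germ cells, and they differed in how far they were kept to them. Of the UMIs of *DLK1*, germ cells held 90.6% in the yak and 92.5% in the cattle-yak, against 27.3% and 18.5% of all UMIs. The shares were 74.5% and 89.9% for *GFRA1*, and 53.4% and 58.7% for *FGFR3*. Only 20.4% and 42.1% of the *ZBTB16* UMIs, and 8.70% and 5.67% of those of *ID4*, lay in germ cells. Most of the counts of *ID4* were thus somatic in both libraries, as were those of *ZBTB16*.

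*DLK1* reached 89.2 CPM in yak germ cells against 3.48 CPM in somatic cells, 25.6-fold more (21.7 to 30.4), and 206 against 3.78 CPM in the cattle-yak, 54.4-fold more (45.6 to 65.3). *GFRA1* had 76 UMIs in yak germ cells and 26 in the somatic cells, a 7.78-fold difference per UMI (4.92 to 12.7). Its ratio in the cattle-yak was 39.4-fold (23.1 to 72.5), from 134 and 15 UMIs. *FGFR3* was 3.05-fold higher in yak germ cells (2.53 to 3.68) and 6.27-fold higher in those of the cattle-yak (5.30 to 7.42). *ID4* was lower in germ cells of both animals, at 14.4 against 56.7 CPM in the yak and 15.8 against 59.7 CPM in the cattle-yak, which gave ratios of 0.254 (0.221 to 0.290) and 0.265 (0.220 to 0.317). On the log2 scale with 1 CPM added, the yak value of -1.91 was -0.62 with typed germ cells alone and -0.49 with every cell weighted equally.

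*ZBTB16* stood on different sides in the libraries. Yak germ cells had 59.8 CPM and somatic cells 87.6 CPM, a ratio of 0.683 (0.636 to 0.732), while cattle-yak germ cells had 348 CPM and somatic cells 108 CPM, a ratio of 3.21 (3.06 to 3.37). With cells held to the limits of the study and clustered anew, the log2 ratio of the cattle-yak turned from 1.67 to -0.41, and that of the yak stayed below 0, at -0.77. No cluster of the cattle-yak was SPG-like under these limits, so that its germ cells were 1 SPC-like cluster of 114 cells, whereas SPG-like cells held 2613 of the 2810 germ UMIs behind the value of 1.67. In the yak, the SPC-like clusters held 259 cells and the SPT-like clusters 656 cells, at 3.82 and 10.3 CPM of *ZBTB16*, and the SPG-like clusters 277 cells at 165 CPM. The cattle-yak germ cells comprised 265 SPG-like and 306 SPC-like cells and no SPT-like cluster. The part of this mixture in the difference between the libraries was not tested.

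**Figure D1:**
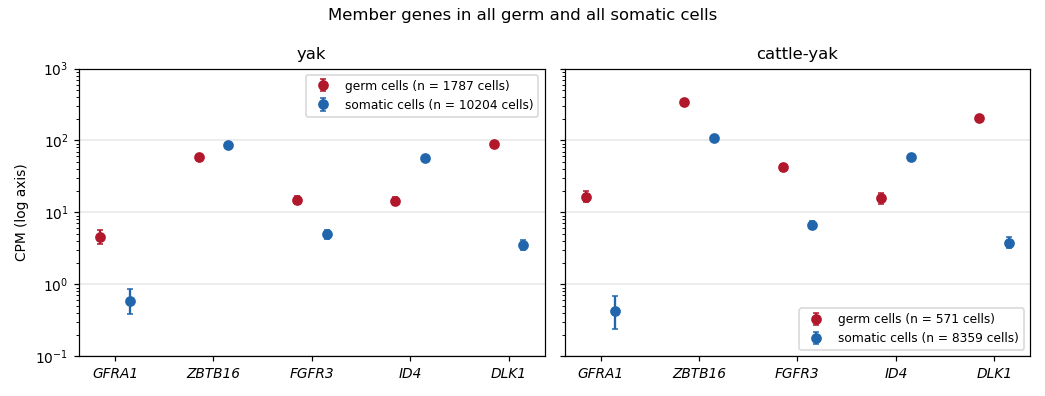
Levels of the 5 genes in CPM (log axis) in all germ cells (red) and all somatic cells (blue) of the yak (left) and the cattle-yak (right), with exact 95% Poisson intervals as bars. *DLK1*, *GFRA1* and *FGFR3* sit higher in germ cells of both libraries and *ID4* lower, whereas *ZBTB16* is at 59.8 against 87.6 CPM in the yak and at 348 against 108 CPM in the cattle-yak.

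After 1 CPM was added to each side, a log2 ratio of at least 2, here called 4-fold, was met by 1 of the 5 genes in the yak, *DLK1* at 4.33. Among all 14427 yak genes with at least 50 counts, 22.5% met it. The cattle-yak had 3 of 5, with *DLK1* at 5.43, *GFRA1* at 3.63 and *FGFR3* at 2.48, against 12.0% of 12752 genes. *GFRA1* of the yak had 1.81 and *FGFR3* 1.44 on that scale. The tally depends on the settings, since yak *GFRA1* had 2.76 with 0.1 CPM added, yak *FGFR3* 2.18 with every cell weighted equally, and cattle-yak *GFRA1* 1.99 with 5 CPM added. *ID4* was at -1.91 and -1.85, and 11.0% and 11.8% of the ranked genes had a lower ratio. *DLK1* ranked 743 of 14427 in the yak and 59 of 12752 in the cattle-yak, and *GFRA1* ranked 3661 and 284.

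Within the yak germ cells the highest levels of 4 of the 5 genes were found in cells the study had not typed. A cluster of 94 cells with a median of 18930 UMIs carried 12 enriched SPG markers and was led by *MORC1*, *PIWIL4* and *SPOCD1*, which are genes of the piRNA and retrotransposon silencing machinery. It is called the *PIWIL4*-high cluster here. The other SPG-like cluster held 183 cells with a median of 16210 UMIs and carried 6 enriched SPG markers. *PIWIL4* was at 108 CPM in the former. Of the 94 cells, 88 had no type, 6 were typed as SPGs, and 14 lay within the limits of the study.

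*GFRA1* was at 31.3 CPM in the *PIWIL4*-high cluster, from 61 UMIs in 33 of its cells. The other SPG-like cluster had 4 UMIs of it, or 1.24 CPM, so that the former exceeded the latter 25.3-fold (9.41 to 96.0). *DLK1* had 1148 UMIs in 88 of the 94 cells and reached 590 CPM against 60.3 CPM, a 9.78-fold difference (8.40 to 11.4). *FGFR3* was at 80.1 against 15.5 CPM, 5.18-fold higher (3.75 to 7.28). *ZBTB16* at 272 against 99.8 CPM and *ID4* at 34.4 against 12.7 CPM were 2.73-fold and 2.72-fold higher, with intervals of 2.37 to 3.14 and 1.81 to 4.11. No interval of these 5 ratios reached 1, but the share of all genes for which this holds between these clusters was not counted.

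The 88 untyped cells of the *PIWIL4*-high cluster were the group with the highest level of *GFRA1*, *ZBTB16*, *FGFR3* and *DLK1*, 4 of the 5 genes, among the yak germ types and classes of at least 50 cells. Of all 14427 genes, 11.1% were highest there. The intervals of *ZBTB16* and *DLK1* stood apart from those of the next group, while those of *GFRA1* and *FGFR3* overlapped with typed SSCs, of which *GFRA1* had 1 UMI. Against the somatic cells as a whole, *DLK1* in this cluster was 169-fold higher (143 to 202), *GFRA1* 53.3-fold (33.1 to 87.8), *FGFR3* 16.2-fold (13.1 to 20.0) and *ZBTB16* 3.11-fold (2.83 to 3.40). *ID4* was 0.606 of the somatic level (0.469 to 0.773). The cluster also appeared at a Leiden resolution of 2, again as a cluster of 94 cells with the same levels. At a resolution of 0.5 and with 15 principal components, SPG-like cells formed 1 cluster, of 271 and 243 cells, where *DLK1* was at 258 and 278 CPM and *GFRA1* at 12.6 and 13.8 CPM. Within the limits of the study the SPG-like cluster was a shallow one of 598 cells and 3 markers, with 160 CPM of *DLK1*, 4.68 of *GFRA1*, 99.5 of *ZBTB16*, 37.5 of *FGFR3* and 67.9 of *ID4*.

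**Figure D2:**
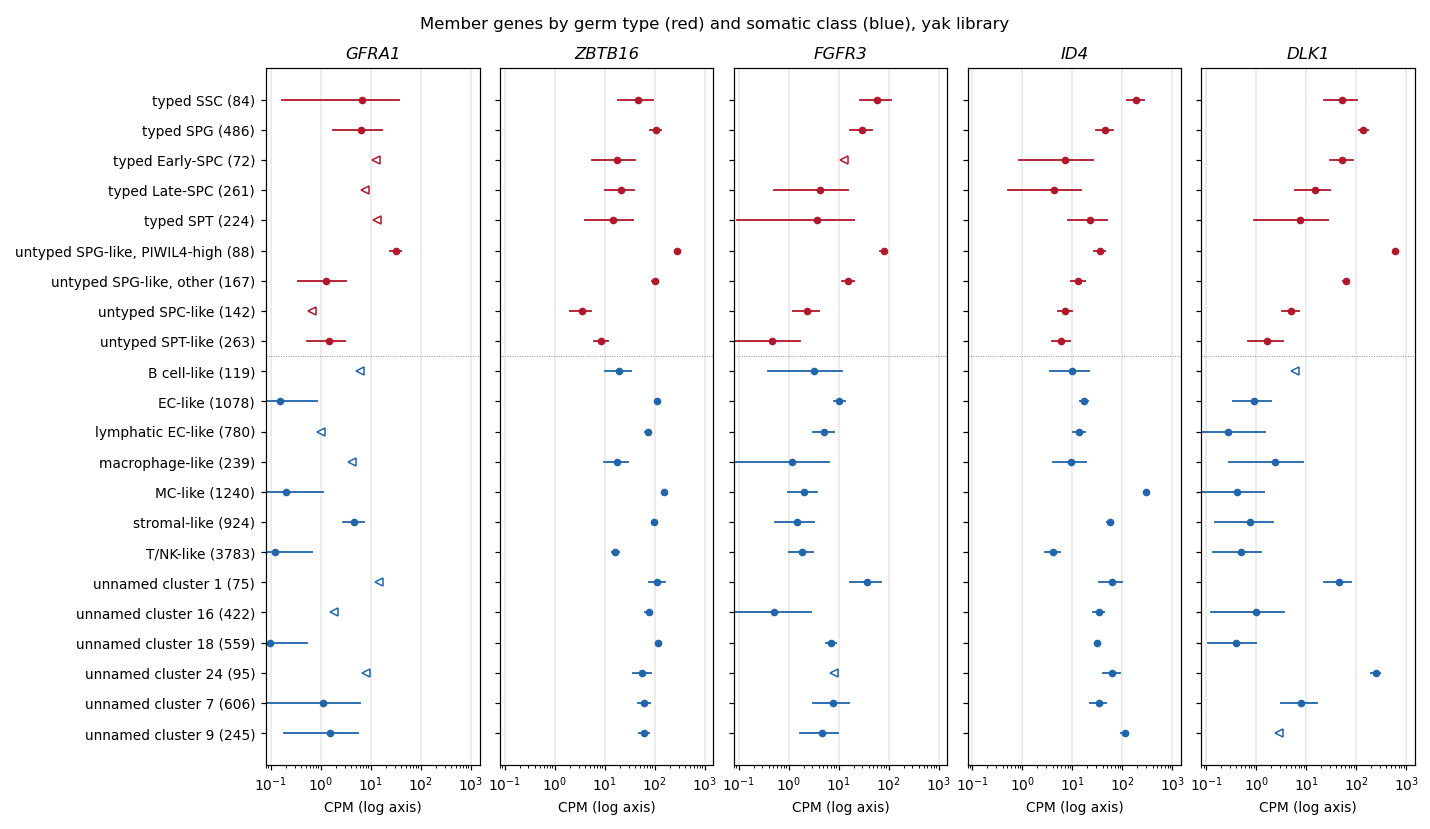
Levels of the 5 genes in CPM (log axes) in the germ types and germ-like clusters (red, above the dotted line) and in the somatic classes (blue) of the yak library, with the number of cells in brackets. Dots are levels with exact 95% Poisson intervals, and open triangles mark the upper limit where no UMI was found. The untyped cells of the *PIWIL4*-high cluster lie farthest to the right for all genes but *ID4*, which is highest in MC-like cells at 292 CPM.

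The cells typed as SSCs by the study held few counts of these genes. Their 84 cells, with a median of 1605 UMIs, had 1 UMI of *GFRA1* (6.53 CPM, 0.165 to 36.4), 7 of *ZBTB16* (45.7 CPM), 9 of *FGFR3* (58.8 CPM), 28 of *ID4* (183 CPM) and 8 of *DLK1* (52.3 CPM). Typed SPGs had 6.46 CPM of *GFRA1* from 4 UMIs, which left a ratio of SSCs to SPGs anywhere from 0.0205 to 10.2. *ID4* was 4.04-fold higher in typed SSCs than in typed SPGs (2.31 to 7.08), and *FGFR3* 2.02-fold (0.800 to 4.74), an interval that includes 1. *ZBTB16* and *DLK1* were lower in typed SSCs, at 0.435 (0.168 to 0.949) and 0.376 (0.157 to 0.775) of their level in typed SPGs.

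Endothelial genes were measured beside these values. The summed EC-like marker list was at 2130 CPM in typed SSCs, 522 CPM in typed SPGs, 209 CPM in the *PIWIL4*-high cluster and 4068 CPM in EC-like somatic cells. *PECAM1*, an adhesion molecule of endothelial cells, was at 1182 CPM in typed SSCs and 1078 CPM in EC-like cells. It is on that list and made up this much of the 2130 and 4068 CPM. The rest of the list was thus lower in typed SSCs than in EC-like cells. *BMX*, a kinase of arterial endothelium, was at 183 and 64.5 CPM. The study itself named *BMX* as a marker of SSCs. By immunohistochemistry it reported the protein in a ring of SSCs beside the seminiferous tubules. The EC-like cluster led by *IDO1* and *BMX* had 47.7 CPM of *ID4* and 21.2 CPM of *FGFR3*, and no UMI of *DLK1* or *GFRA1* in 271 cells. The SPG-like marker list was at 608 CPM in typed SSCs, 1479 CPM in typed SPGs and 2649 CPM in the *PIWIL4*-high cluster. The smooth muscle genes of the MC-like list were highest among these in typed SPGs, at 5878 CPM against 1339 CPM in typed SSCs and 32582 CPM in MC-like cells. The part of such transcripts in the levels of *ID4* and *FGFR3* was not tested.

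Of the 84 typed SSCs, 67 fell with 399 of the 486 typed SPGs into 1 shallow cluster led by *UCHL1* and *BEND4* that carried 2 enriched SPG markers and stayed unnamed. It had a median of 1058 UMIs per cell. Its 75 untyped cells counted as somatic here and had 36.5 CPM of *FGFR3*, 60.8 CPM of *ID4* and 44.6 CPM of *DLK1*. They had no UMI of *GFRA1*, with an upper limit of 14.9 CPM that lies above the 6.46 CPM of typed SPGs. Within the *PIWIL4*-high cluster, the 14 cells inside the limits had 0 UMIs of *GFRA1* and *ID4*, 8 of *FGFR3* and 52 of *DLK1*, the last at 654 CPM. The 80 cells outside had 587 CPM of *DLK1*. At the summed depth of the 14 cells, 0 UMIs cannot be told apart from the 31.3 CPM of *GFRA1* and 34.4 CPM of *ID4* in the whole cluster.

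Past the spermatogonia, the clusters of the yak had lower levels of all 5 genes. The share of all genes that were lower there was not counted. From the SPG-like to the SPC-like clusters of the yak, *DLK1* went from 259 to 7.14 CPM, 36.3-fold (26.8 to 50.4). *ZBTB16* was 43.1-fold lower in the SPC-like clusters (28.5 to 68.3) and *FGFR3* 18.4-fold lower (10.5 to 35.1). *GFRA1* had 65 UMIs in the SPG-like and 0 in the SPC-like clusters, and the lower bound of the ratio was 19.9. *ID4* differed least among the 5, at 20.8 and 6.98 CPM, 2.99-fold (2.07 to 4.37). The SPT-like clusters had 3.01 CPM of *DLK1*, 1.29 of *GFRA1*, 1.08 of *FGFR3* and 6.24 of *ID4*. Among typed cells, early SPCs had 52.7 CPM of *DLK1* (29.5 to 86.9) and late SPCs 14.7 CPM. The former overlapped with the 52.3 CPM of typed SSCs (22.6 to 103). Of the 72 typed early SPCs, 39 fell into the shallow unnamed cluster that also held 67 of the 84 typed SSCs. Of the 261 typed late SPCs, 170 fell into an SPT-like cluster. Typed SPTs had 22.1 CPM of *ID4* from 6 UMIs (8.11 to 48.1), which spans the 20.8 CPM of the SPG-like clusters.

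The cattle-yak SPG-like cluster held 265 cells with a median of 23546 UMIs, 32 of them within the limits of the study. *GFRA1* was at 20.6 CPM (17.3 to 24.5) from 131 UMIs, *ZBTB16* at 412 CPM (396 to 428), *FGFR3* at 50.1 CPM (44.8 to 55.9), *ID4* at 15.9 CPM and *DLK1* at 254 CPM (242 to 267). It was the highest of the groups of at least 50 cells for all genes but *ID4*, and 28.5% of all 12752 genes were highest there. For *ZBTB16*, *FGFR3* and *DLK1* the interval stood apart from that of the next group.

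**Figure D3:**
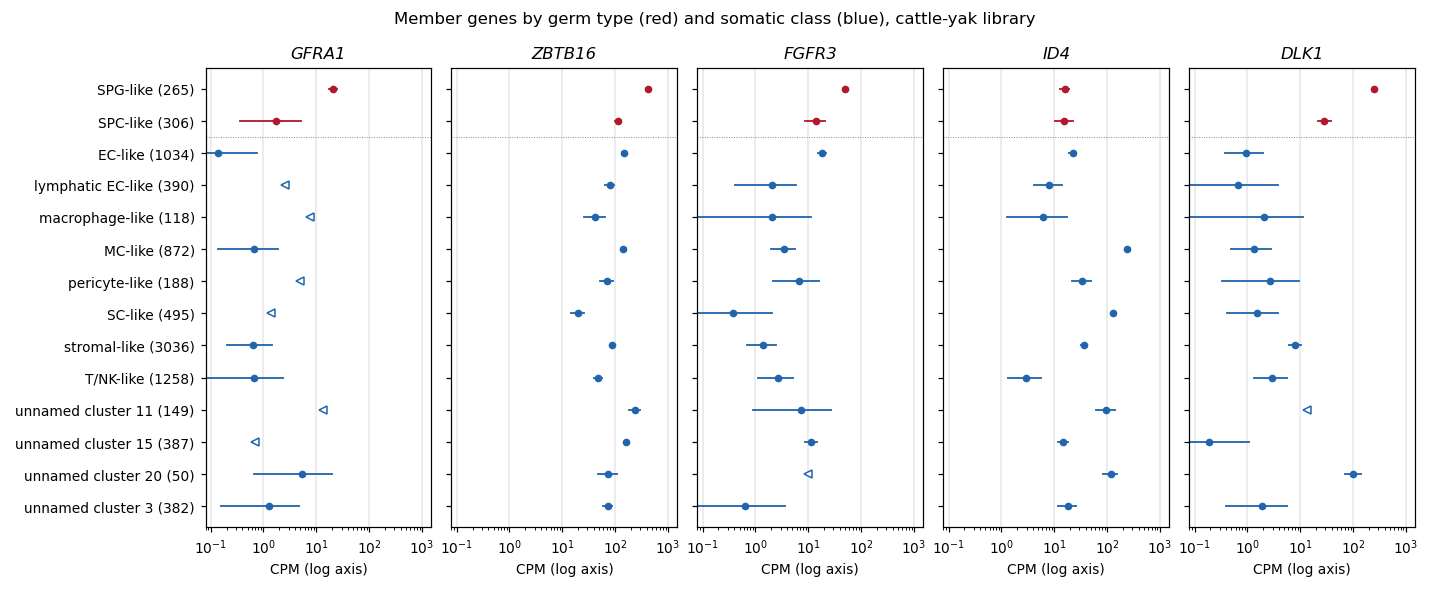
Levels of the 5 genes in CPM (log axes) in the germ-like classes (red, above the dotted line) and the somatic classes (blue) of the cattle-yak library, with the number of cells in brackets, exact 95% Poisson intervals as bars and open triangles as the upper limit at 0 UMIs. SPG-like cells are highest for *GFRA1*, *ZBTB16*, *FGFR3* and *DLK1*, and MC-like cells for *ID4*.

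Germ cells of the cattle-yak were also clustered on their own, again without the 5 genes, and the groups differed in their levels. A group of 43 cells, all from the SPG-like cluster and with a median of 30328 UMIs, had 36.3 CPM of *GFRA1* (26.9 to 47.9), 523 CPM of *ZBTB16*, 79.1 CPM of *FGFR3*, 21.8 CPM of *ID4* and 414 CPM of *DLK1* (381 to 450). It had 1 enriched SPG marker over the other germ cells, *ETV5*, which codes for a transcription factor downstream of GDNF. A group of 68 cells with *KIT* and *CDK1* among its genes had 1.93 CPM of *GFRA1* (0.234 to 6.99), 123 CPM of *ZBTB16*, 10.6 CPM of *FGFR3*, 4.84 CPM of *ID4* and 51.3 CPM of *DLK1* (38.4 to 67.1). *KIT* is the receptor that differentiating spermatogonia begin to express, and *CDK1* drives mitosis. In the yak, *KIT* did not differ between the untyped *PIWIL4*-high cells, at 37.9 CPM (29.7 to 47.6), and the other untyped SPG-like cells, at 34.4 CPM (28.2 to 41.5). All 5 intervals of the group of 43 cells lay above those of the group of 68 cells, and the share of all genes with such a gap was not counted. No rule fixed beforehand picked these groups from the others, so this gap is a description only. Neither group received a name from its markers. A further group of 42 germ cells, 32 of them SPG-like, carried *PECAM1*, *CDH5* and *COL28A1* among its leading genes and still had 216 CPM of *DLK1* and 404 CPM of *ZBTB16*.

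The cattle-yak SPC-like class was less certain. Of its 306 cells, 256 formed a shallow cluster with a median of 2561 UMIs that was named from 3 markers, and 29 of these fell with Sertoli cell genes when germ cells were clustered alone. This cluster had 150 CPM of *ZBTB16*, with 41.7% of its 192 UMIs in 5 cells, and 20.4 CPM of *DLK1*, with 46.2% of 26 UMIs in 5 cells. The SPC-like class as a whole had 113 CPM of *ZBTB16* and 15.5 CPM of *ID4*, with a ratio of SPG-like to SPC-like cells of 1.02 for the latter (0.664 to 1.63). The other SPC-like cluster, of 50 cells and 10 markers, had 10.9 CPM of *ZBTB16* (3.53 to 25.4), 28.3 CPM of *FGFR3* from 13 UMIs in 4 cells, and 52.3 CPM of *DLK1* (33.5 to 77.7).

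SPG-like cells of both libraries were set side by side, 277 of the yak and 265 of the cattle-yak. *DLK1* was at 259 and 254 CPM, with a log2 ratio of -0.03 (-0.13 to 0.08). *ZBTB16* was higher in the cattle-yak cells, at 412 against 165 CPM, a log2 ratio of 1.32 (1.21 to 1.44). *GFRA1* at 20.6 against 12.5 CPM had a log2 ratio of 0.68 (0.28 to 1.17), and *FGFR3* at 50.1 against 39.7 CPM one of 0.33 (0.08 to 0.59). *ID4* was at 15.9 and 20.8 CPM, with -0.37 (-0.79 to 0.02). These intervals are of the ratios without the added 1 CPM and hold counting error of 1 library each. The yak class joined both SPG-like clusters, between which the same genes differed more.

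**Figure D4:**
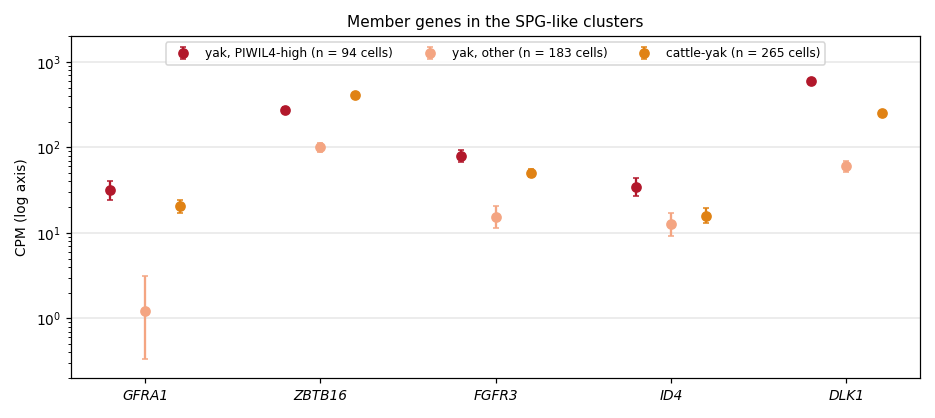
Levels of the 5 genes in CPM (log axis) in the *PIWIL4*-high and the other SPG-like cluster of the yak and in the SPG-like cluster of the cattle-yak, with exact 95% Poisson intervals as bars. The cattle-yak cluster lies between both yak clusters for *GFRA1*, *FGFR3*, *ID4* and *DLK1* and above them for *ZBTB16*, at 412 against 272 and 99.8 CPM.

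Among somatic classes, *ID4* was highest in MC-like cells. MC-like cells, which carry the contractile genes of myoid and vascular muscle cells, had 292 CPM in the yak (277 to 307) and 242 CPM in the cattle-yak (228 to 256), each above every germ group of its own library. In the yak the deeper of the MC-like clusters, of 685 cells, had 348 CPM from 1390 UMIs in 476 cells, and its 5 richest cells held 4.75% of these UMIs. The whole class had 1447 UMIs, so its level came mostly from this 1 cluster. Typed SSCs came next at 183 CPM (122 to 264), an interval apart from that of MC-like cells. Not all contractile cells reached the level of MC-like cells. Unnamed yak clusters with 3127 and 2925 CPM of the contractile gene *ACTA2* had 33.3 and 112 CPM of *ID4*. The latter was still at place 3 among the yak groups of at least 50 cells, with an interval that overlapped that of typed SSCs. In the cattle-yak, SC-like cells, with the Sertoli cell genes *SOX9*, *INHA* and *AARD*, followed at 131 CPM, and the 39 untyped SC-like cells of the yak had 161 CPM from 17 UMIs. T/NK-like cells had 4.04 and 2.95 CPM.

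*ZBTB16* was spread over nearly all classes. MC-like cells had 150 CPM in the yak and 143 CPM in the cattle-yak, EC-like cells 113 and 145 CPM, stromal-like cells 96.0 and 88.4 CPM and lymphatic EC-like cells 72.1 and 79.4 CPM. An unnamed yak cluster of 559 cells held 1228 of the 3874 somatic UMIs, at 119 CPM. In the cattle-yak, an unnamed cluster of 387 cells held 853 of 3863, at 163 CPM. The lowest levels in the yak somatic cells were those of T/NK-like cells, at 16.4 CPM, and macrophage-like cells, at 17.4 CPM. T/NK-like cells of the cattle-yak had 47.8 CPM, a log2 ratio of 1.49 to the yak with an interval above 0, and 105 of their 146 UMIs lay in 1 cluster of 430 cells that was led by *IL7R*, where the level was 102 CPM. The second highest level of the cattle-yak, 234 CPM from 64 UMIs, was that of an unnamed cluster of 149 cells led by *CDH19* and *SCN7A*, in which 55.6% of UMIs were mitochondrial.

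Outside the germ cells *DLK1* was concentrated in few cells. The somatic group with the highest level in both libraries was an unnamed cluster led by *WFDC2* that also carried *PAX8*, both genes of epithelia, at 239 CPM in the yak (197 to 287) and 101 CPM in the cattle-yak (70.9 to 139). The yak cluster had its 112 UMIs in 17 of 96 cells, with 43 in 1 cell and 68.8% in the top 5. The cattle-yak cluster had 37 UMIs in 16 of 50 cells, and 67.6% lay in the top 5. Stromal-like cells had 0.738 CPM in the yak from 3 UMIs and 8.05 CPM in the cattle-yak from 64 UMIs, of which 40 lay in 14 cells of 1 cluster of 322 cells. MC-like, EC-like and T/NK-like cells stayed between 0.403 and 2.95 CPM.

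*GFRA1* had 26 UMIs in 10204 somatic cells of the yak, and 19 of them lay in stromal-like cells, at 4.68 CPM (2.82 to 7.30). This level overlapped with that of typed SPGs (1.76 to 16.6). Stromal-like cells of the cattle-yak had 5 UMIs in 3036 cells, at 0.629 CPM. *FGFR3* was highest among named somatic classes in EC-like cells, at 10.4 CPM in the yak (8.09 to 13.2) and 18.4 CPM in the cattle-yak (15.4 to 21.8). In the yak, the *BMX* cluster with 21.2 CPM (15.2 to 28.8) exceeded the other EC-like cluster at 6.07 CPM, and in the cattle-yak the *BMX* cluster had 28.5 CPM.

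The share of cells with a UMI followed depth. Without thinning, *GFRA1* was seen in 35.1% of the *PIWIL4*-high cells and *DLK1* and *ZBTB16* each in 93.6%. After every cell was thinned to 1000 UMIs, the shares were 2.13% for *GFRA1*, from 2 cells (0.259 to 7.48), 23.4% for *ZBTB16* (15.3 to 33.3), 7.45% for *FGFR3* (3.05 to 14.7), 5.32% for *ID4* (1.75 to 12.0) and 41.5% for *DLK1* (31.4 to 52.1), all of 94 cells. T/NK-like cells of the yak, of which 3541 of 3783 were deep enough, served as background at a median of 1932 UMIs. They had a UMI of *GFRA1* in 0 cells, which allows a share of up to 0.0847% by 3 counts, *DLK1* in 0.113%, *FGFR3* in 0.254%, *ID4* in 0.508% and *ZBTB16* in 1.78%. Each share of the *PIWIL4*-high cells lay above that of T/NK-like cells with intervals apart. For how many of all genes the same holds was not counted. T/NK-like cells had the lowest level of *ID4* among the yak groups of at least 50 cells. Of the somatic ones they also had the lowest level of *ZBTB16*. Over all somatic cells *ID4* was higher than in the *PIWIL4*-high cluster, at 56.7 against 34.4 CPM, and *ZBTB16* lower, at 87.6 against 272 CPM.

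Thinned shares of the cattle-yak SPG-like cells were 30.9% for *ZBTB16*, 17.4% for *DLK1*, 6.04% for *FGFR3*, 0.755% for *GFRA1* and 0.377% for *ID4*, over 265 cells. T/NK-like cells of this library, at a median of 2252 UMIs and with 1206 of 1258 cells deep enough, had 4.39%, 0.332%, 0.332%, 0.0829% and 0.249%. For *ID4* and *GFRA1*, 1 and 2 cells kept a UMI and the intervals overlapped with those of T/NK-like cells, so that thinned shares show no difference at this depth. Unthinned, they were 27.9% and 30.6% against 0.715% and 0.159%, and the levels stood apart at 15.9 against 2.95 CPM for *ID4* (1.35 to 5.60 in T/NK-like cells) and 20.6 against 0.655 CPM for *GFRA1* (0.0794 to 2.37). T/NK-like cells were the lowest group for *ID4* in this library as well. All somatic cells together had 59.7 CPM of *ID4*, and SPG-like cells were at 0.267 of that level (0.216 to 0.326). Of the typed SSCs, 77 of 84 were deep enough, and 1 of them kept a UMI of *GFRA1*, 2 one of *DLK1* and 11 one of *ID4*.

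The genes were seen together in the same cells. Of the 94 *PIWIL4*-high cells, 15 had a UMI of all 5 genes, 28 had 4 and another 28 had 3, and all 33 cells with *GFRA1* also had *DLK1*. As *DLK1* was seen in 88 of the 94 cells, this made 35.1% of the cluster against a product of the separate shares of 32.9%. *GFRA1* and *FGFR3* were found together in 29 cells, 30.9% of the cluster, where the product of their separate shares is 24.3%. This pair had the widest gap of the 10 in the yak, and *GFRA1* and *ZBTB16*, at 33.0% against 32.9%, the narrowest. In the cattle-yak cluster 20 of 265 cells had all 5, and 74 of the 81 cells with *GFRA1* had *DLK1*, which made 27.9% of the cluster against a product of 21.5%. Depth moved with these counts. The median was 27732 UMIs in yak cells with all 5 genes, 17521 in those with 2 and 1214 in the 1 cell with none, and its part was not tested.

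Most UMIs of the 5 genes in germ cells came from cells outside the limits of the study. In the yak these cells held 92.1% of the germ UMIs of *GFRA1*, 86.1% of *ZBTB16*, 83.2% of *FGFR3*, 59.4% of *ID4* and 86.4% of *DLK1*, against 80.6% of all germ UMIs. The cattle-yak values ran from 91.4% for *ID4* to 98.0% for *ZBTB16*, against 91.2%. Within the limits, 6 UMIs of *GFRA1* were left in 1364 yak germ cells and 3 in 136 cattle-yak germ cells. In the *PIWIL4*-high cells the EC-like list was at 209 CPM and the MC-like list at 889 CPM. Without the 10% of cells with the highest doublet scores, *DLK1* was at 610 CPM there and *GFRA1* at 30.4 CPM. The scoring called 0 of 11991 yak cells and did not work in this library, so the part of doublets was not tested.

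**Figure D5:**
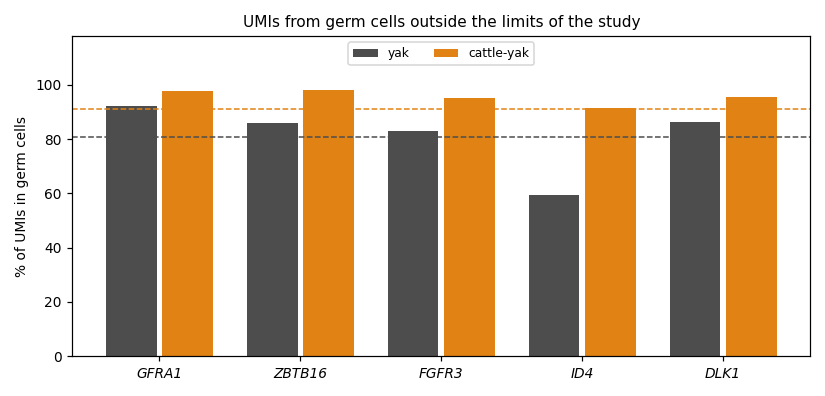
Share of the UMIs of each gene in germ cells that lay in germ cells outside the limits of the study, in percent, for the yak (grey bars) and the cattle-yak (orange bars). Dashed lines in the same colours give the share over all genes, 80.6% and 91.2%, and *ID4* of the yak falls below its line at 59.4%.

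Partners of the 5 genes in their pathways were read from fixed lists, which share genes with the SPG markers used for naming. *RET*, the kinase that signals with GFRA1, was the only 1 of 6 genes of the GDNF family and its receptors with at least 50 counts that was 4-fold higher in yak germ cells, at a log2 ratio of 2.22, and the only 1 of 5 in the cattle-yak, at 3.57. Of all genes, 22.5% and 12.0% were 4-fold higher. It was at 37.5 CPM in the *PIWIL4*-high cluster. *GFRA2*, the co-receptor for neurturin, was at 38.0 CPM there and at 47.3 CPM in the cattle-yak SPG-like cluster. *GDNF* itself had 0.90 CPM in yak germ cells and 1.83 CPM in somatic cells.

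FGF ligands and receptors had 0 of 6 genes past the 4-fold limit upwards in either library, against 22.5% and 12.0% of all genes. In the yak 2 of 6 and in the cattle-yak 3 of 6 were 4-fold lower in germ cells, against 10.2% of all genes in each library. *FGFR1* was at 6.62 against 48.6 CPM and *FGFR2* at 7.64 against 38.0 CPM in the yak, while *FGFR3* of the same family was higher in germ cells. The ID and E protein list had 0 of 6 genes 4-fold higher and 3 of 6 lower in both libraries, namely *ID1*, *ID2* and *ID3*, with yak log2 ratios of -2.36, -3.43 and -2.40. The E protein genes *TCF3*, *TCF12* and *TCF4* had 0.22, -0.52 and -1.95 in the yak and 0.84, -0.02 and -1.26 in the cattle-yak.

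Notch ligands and receptors had 1 of 8 genes higher and 5 of 8 lower in yak germ cells, and 1 of 9 and 4 of 9 in the cattle-yak, beside 22.5% and 12.0% of all genes higher and 10.2% lower in each library. The 1 gene was *DLL3*, a divergent Notch ligand, at log2 ratios of 4.04 and 2.82, but it was at 6.16 CPM in the *PIWIL4*-high cluster and 20.3 CPM over all yak germ cells. The lower genes shared by both libraries included *NOTCH3*, at -2.16 and -3.35, and *JAG1*, at -2.69 and -2.76. Of the ZBTB factors, 1 of 5 was higher and 3 of 5 lower in the yak, and 0 of 4 and 1 of 4 in the cattle-yak, beside the same shares of all genes. *ZBTB32* was at 3.27 and *ZBTB20* at -3.14 in the yak, but *ZBTB32* had 1.03 CPM in the *PIWIL4*-high cluster and 12.8 CPM over all yak germ cells.

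Genes of undifferentiated and early spermatogonia were higher in germ cells by 4-fold for 10 of 16 in the yak and 9 of 15 in the cattle-yak. Of all genes, 22.5% and 12.0% were higher by this limit. The median log2 ratios of the list were 2.62 and 3.22 against 0.47 and 0.30 for all genes. *DMRT1*, *LHX1* and *UCHL1* led the yak list at 5.69, 5.44 and 5.09. *LHX1* was at 19.5 CPM in the *PIWIL4*-high cluster and 114 CPM over all yak germ cells. *DMRT1*, at 247 against 137 CPM, and *UCHL1*, at 1559 against 533 CPM, were higher in that cluster. *THY1*, a surface marker of rodent stem cell preparations, was the 1 gene 4-fold lower in each library, at -2.19 and -2.27. In each library 10.2% of all genes were 4-fold lower. *KIT* had 0.62 and 0.71. The germline list met the limit for 10 of 11 genes in both libraries, beside the same shares of all genes. Its exception was *HORMAD1* at 0.21 and 0.04. *HORMAD1*, *SYCP1*, *SYCP2* and *SYCP3* of this list were SPC markers in the naming of clusters. *DMRT1*, *UCHL1* and others of the spermatogonial list were SPG markers there. The ratios of such genes were thus partly fixed by the choice of germ cells. *DMRT1* had 1.67 CPM and *RNF17*, of the germline list, 3.91 CPM in yak somatic cells, beside 87.6 CPM of *ZBTB16* and 56.7 CPM of *ID4*.

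Likeness of patterns was measured as Pearson's r of log2(CPM + 1) over 36 germ types and classes of both libraries, among 12502 genes with at least 200 counts. It is a description over groups that share a library and differ in depth. The 3 genes most like *DLK1* were *RBBP8* (r = 0.87), *LSM14B* (r = 0.87) and *DSG2* (r = 0.86). *GFRA1* was most like *SHOX*, *CHRNB4* and *PAX6*, each with r = 0.81, of which *SHOX* and *CHRNB4* were also leading genes of the *PIWIL4*-high cluster. *ZBTB16* was most like *ZNF462* (r = 0.86), and 2 further genes followed, ENSBGRG00000020778 and *GALNT2*. *FGFR3* was most like ENSBGRG00000001086 (r = 0.83), *CIC* and *SERTAD4*, and *ID4* most like *CACNA2D1* (r = 0.82), *PLCE1* and *ZBTB7C*. Among themselves, *GFRA1* and *DLK1* were most alike (r = 0.63) and *ID4* and *DLK1* least (r = 0.08).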

How the data were processed

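Testis cells of 1 yak and 1 cattle-yak were measured as 1 10x Genomics library each. The authors deposited UMI counts per gene and cell barcode, whole numbers without normalization, on 26961 genes of the BosGru3.0 annotation. The deposited file headers name Cell Ranger 5.0.0 and the submitters' processing notes 2.1.1. Depth per cell ran from 500 UMIs to 170998 in the yak and 64589 in the cattle-yak.

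Typed cells were matched to the germ types of the study by barcode, for 1127 of 1127. All deposited cells of each library were clustered with scanpy 1.11.5 and igraph 0.11.9 (2000 variable genes, 30 components, 15 neighbours, Leiden resolution 1, seed 0), leaving out the 5 genes, genes the study names, and mitochondrial and rRNA features. A cluster was named with at least 3 markers enriched at a log2 ratio of 1 and seen in 10% of its cells. This gave 26 yak and 25 cattle-yak clusters, of which 6 and 4 stayed unnamed and counted as somatic. Germ cells were typed cells and cells of SPG-like, SPC-like and SPT-like clusters. A rebuilt name may differ from one the study would give.

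Counts were summed per group and scaled to CPM. Intervals are exact, Poisson for levels, conditional for ratios and Clopper-Pearson for shares, at 95%, with the limit of a share of 0 set at 3 cells, for counting error only. Log2 ratios had 1 CPM added to each side, while the intervals beside them are those of the ratio without it. Since each animal gave 1 library, differences were not tested, and p-values are left out. Scrublet called 0 of 11991 yak cells and did not work there, and it called 251 cattle-yak cells. No cell was removed, and an alternative left out the 10% of cells with the highest scores. The limits of the study were rebuilt from its methods for each library, as 2 standard deviations around the mean of genes and UMIs and a mitochondrial share below 30%. In the yak they kept more cells than the paper reports. The ratios and intervals were tested on simulated Poisson counts of summed groups. These hold no spread between cells, so the test covers counting error only. Named genes were the 5 genes, for each the 3 most alike in pattern, and genes of related lists with a described role or extreme ratio. Cluster leading genes and the endothelial genes *PECAM1* and *BMX* were named after their values were seen. The 5 genes and all lists were chosen with earlier results of these data known. Figures were drawn with matplotlib 3.10.9 under Python 3.11.15. The reads, coordinates and sequences of the genes were not used here.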

Additional observations from a re-analysis of the deposited data

Results flagged for a closer look

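*ZBTB16* was flagged because its ratio of germ to somatic cells had opposite signs in the libraries, with log2 values of -0.54 in the yak and 1.67 in the cattle-yak. The difference was not tested, since each side is 1 library. SPG-like cells, at 165 and 412 CPM, were above the somatic cells, at 87.6 and 108 CPM, in both libraries.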

How the results depend on the processing

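Values here are log2 ratios of germ to somatic cells. Of 125 recomputed ratios, 80 moved by less than counting error, 44 moved more without changing sign and 1 changed sign, and the cause of these moves was not tested. The 1 was *ZBTB16* of the cattle-yak within the limits of the study, at -0.41. There the others were 0.71 (*GFRA1*), -0.77 (*ZBTB16*) and -0.98 (*ID4*) in the yak, and 2.00 (*GFRA1*), -2.50 (*ID4*) and 4.78 (*DLK1*) in the cattle-yak. With a pseudocount of 0.1 CPM, *GFRA1* was 2.76 and *DLK1* 4.64 in the yak, and 5.00 and 5.73 in the cattle-yak. With 5 CPM, the yak had 0.78 (*GFRA1*), 1.01 (*FGFR3*), -1.67 (*ID4*) and 3.47 (*DLK1*), and the cattle-yak 1.99 (*GFRA1*), 2.01 (*FGFR3*) and 4.58 (*DLK1*). Without unnamed clusters, the yak had -0.40 (*ZBTB16*), -2.11 (*ID4*) and 5.80 (*DLK1*), and cattle-yak *ZBTB16* was 1.80. With typed germ cells alone, the yak had -0.79 (*ZBTB16*), -0.62 (*ID4*) and 3.89 (*DLK1*). Weighting every cell equally gave -0.049 (*ZBTB16*), 2.18 (*FGFR3*) and -0.49 (*ID4*) in the yak, and 1.22 (*ZBTB16*) and 4.54 (*DLK1*) in the cattle-yak. Without mitochondrial and rRNA features, *ZBTB16* was -0.78 in the yak and 1.58 in the cattle-yak, and yak *ID4* -2.15. Median-of-ratios scaling gave -1.09 (*ZBTB16*), 0.94 (*FGFR3*), -2.44 (*ID4*) and 3.84 (*DLK1*) in the yak, and 1.19 (*ZBTB16*), 2.03 (*FGFR3*), -2.31 (*ID4*) and 5.00 (*DLK1*) in the cattle-yak, where 1008 genes in place of 1534 were 4-fold higher. Without the cells of highest doublet score, yak *ID4* was -2.15. With 15 components, cattle-yak *ZBTB16* was 1.77 and *DLK1* 5.72. Without the shallow SPC-like cluster, an alternative chosen after seeing the data, cattle-yak *ZBTB16* was 1.82.

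No paired analysis was possible because each animal gave 1 library, and for the same reason no library was left out. The SPG-like class of the cattle-yak gave no value at a resolution of 0.5 or within the limits, where no cluster had that name. Depth limits *GFRA1* most, with 102 and 149 UMIs in the libraries.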
